A study of Mus musculus with 22 samples.

Results

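RNA abundance after depletion of Denr was examined in mouse NIH3T3 cells, an established line of embryonic fibroblasts. All 11 RNA-seq libraries of the series were taken by their labels, of 22 libraries in all. The other 11 are RPF-seq libraries of the same lysates, which hold the pieces of mRNA covered by a ribosome. In 6 of the RNA-seq libraries the cells expressed an shRNA against Denr (3 with Denr shRNA1 and 3 with Denr shRNA2), and in 5 a control shRNA (3 with scramble shRNA and 2 with an shRNA against Gfp). All cells, controls included, had received a lentiviral vector and had been selected with puromycin, and all were treated briefly with cycloheximide, which arrests elongating ribosomes, before lysis. A library stands for 1 culture dish, and the study calls the dishes biological replicates without saying whether each was transduced separately. The p-values of knockdown against control thus measure the spread between dishes, which includes differences between the 2 shRNAs of each group.

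DENR works together with MCTS1 on the small ribosomal subunit. The complex removes tRNA after termination and lets ribosomes start again downstream of short upstream reading frames, and EIF2D holds both activities in 1 protein. DENR thus acts on translation, whereas the values described here are levels of mRNA: the RPKM of the coding sequence (CDS), that is, reads per kilobase of CDS scaled to the normalised library size, for 10516 genes. RPKM are shares of a library, so that less RNA of a gene per cell and fewer cells with that RNA cannot be told apart. Changes are given as differences of log2(RPKM + 0.1), knockdown minus control, from limma's moderated test over all genes, with Benjamini-Hochberg adjusted p-values and a threshold of 0.1. On this scale the change of genes with very low RPKM is understated.

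The libraries carried the RNA of fibroblasts. Of 12 fibroblast markers, 10 were in the table, among them Vim, an intermediate filament of mesenchymal cells (4106 RPKM in controls), Col1a2 (610.1 RPKM) and Pdgfra (80.7 RPKM), and none of the 10 passed the test. Few markers of other cell types had enough reads to be listed, namely 2 of 12 for immune cells, 2 of 12 for epithelium, 1 of 10 for endothelium, 1 of 10 for adipocytes and 3 of 12 for muscle. Summed over the list, the 2 immune markers (Cd14 and Lyz2) lay between 41.7 and 61.1 RPKM in controls and between 49.2 and 70.4 RPKM after knockdown. Of all these markers of other cells, Tnnt2 alone passed the test.

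Between 7730990 and 18212778 reads per library lay on the CDS of the 10516 genes, with the lowest number in scramble shRNA replicate 3. Replicates of 1 shRNA differed by 4.89 to 54.6 times the variance that counting alone gives. A pair of libraries stood apart from the rest. The standard deviation over genes of the log2 deviation from a gene's mean was 0.357 in Denr shRNA1 replicate 1 and 0.307 in scramble shRNA replicate 3, against 0.163 to 0.237 in the other 9. These deviations ran with the GC content of the CDS. With the genes in 5 bins by GC content, from the bin with the lowest to the bin with the highest, the median deviation rose by 0.547 in Denr shRNA1 replicate 1 and by 0.242 in Gfp shRNA replicate 1, and fell by 0.423 in scramble shRNA replicate 3. Over the 6 knockdown libraries this difference between the outer bins ranged from −0.173 to 0.547, and over the 5 controls from −0.423 to 0.242, so that the groups overlapped. Results that rest on these libraries are therefore given also without both of them and after removal of the trend with CDS length and GC content.

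**Figure D1:**
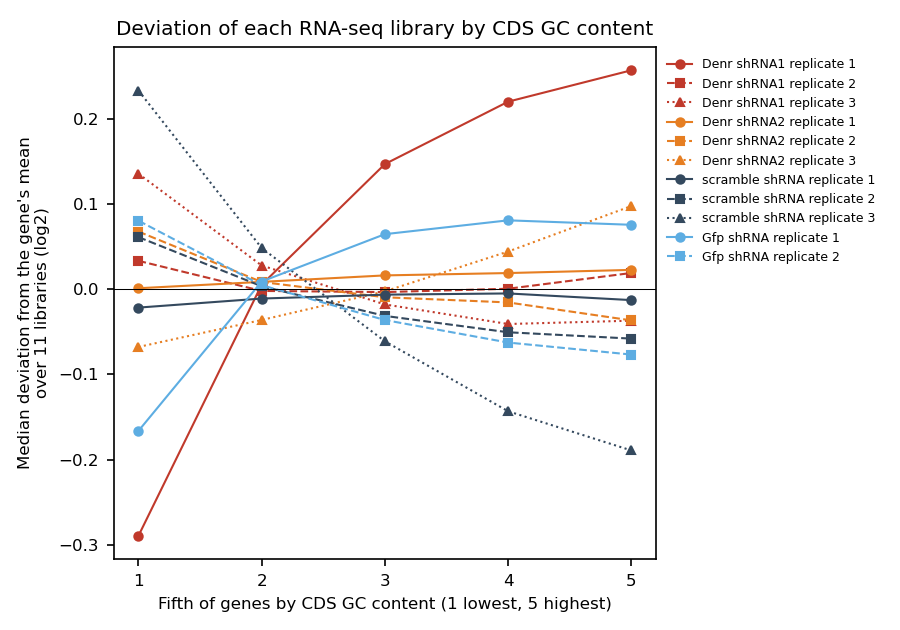
Median deviation of each RNA-seq library from the mean of each gene over the 11 libraries (log2, vertical axis), for genes in 5 bins of CDS GC content (horizontal axis, 1 lowest, 5 highest); colours are shRNAs, symbols and line styles replicate numbers. Denr shRNA1 replicate 1 climbs from −0.290 to 0.257 and scramble shRNA replicate 3 descends from 0.233 to −0.189.

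After knockdown, 373 of 10516 genes (3.55%) differed in RNA, 282 of them higher (2.68%) and 91 lower (0.865%). Most changes were modest. The median change was 0.45 for the genes that rose and −0.41 for those that fell, and beyond Denr itself only 22 genes passed the test with more than a 2-fold change, 13 higher and 9 lower. The genes that fell had a median control level of 47.3 RPKM, against 14.8 RPKM for those that rose and 28.2 RPKM for all genes. In 249 of the 373, all knockdown libraries lay on 1 side of all controls; such a separation was seen in 386 of all genes (3.67%).

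The surplus of rises over falls differed between settings, and its cause was not tested. The median change of all genes was 0.027, and it climbed from −0.059 in the bin of genes with the lowest GC content to 0.11 in the bin with the highest. In the lowest bin 15 genes rose and 23 fell, and in the highest 98 rose and 12 fell. Rises made up 75.6% of the calls as scaled by the authors, 64.1% after centring each library on its median (191 higher, 107 lower), 62.9% without both libraries that stood apart (308 higher, 182 lower) and 50.9% after removal of the trend with CDS length and GC content (379 higher, 3.62% of the genes tested, and 366 lower, 3.49%). Of the 373 genes, 323 were called after that removal too, 237 of the 282 that had risen and 86 of the 91 that had fallen. The removal would also take out any response to knockdown that itself runs with CDS length or GC content. The number of calls also moved with single libraries, from 139 without scramble shRNA replicate 2 to 734 without Gfp shRNA replicate 1. For each list of gene functions below, the numbers of genes that rose and fell are therefore given also with the trend removed and without both libraries that stood apart. Such numbers are to be read against the shares of all genes, 2.68% higher and 0.865% lower. With the trend removed, these shares were 3.62% and 3.49%.

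**Figure D2:**
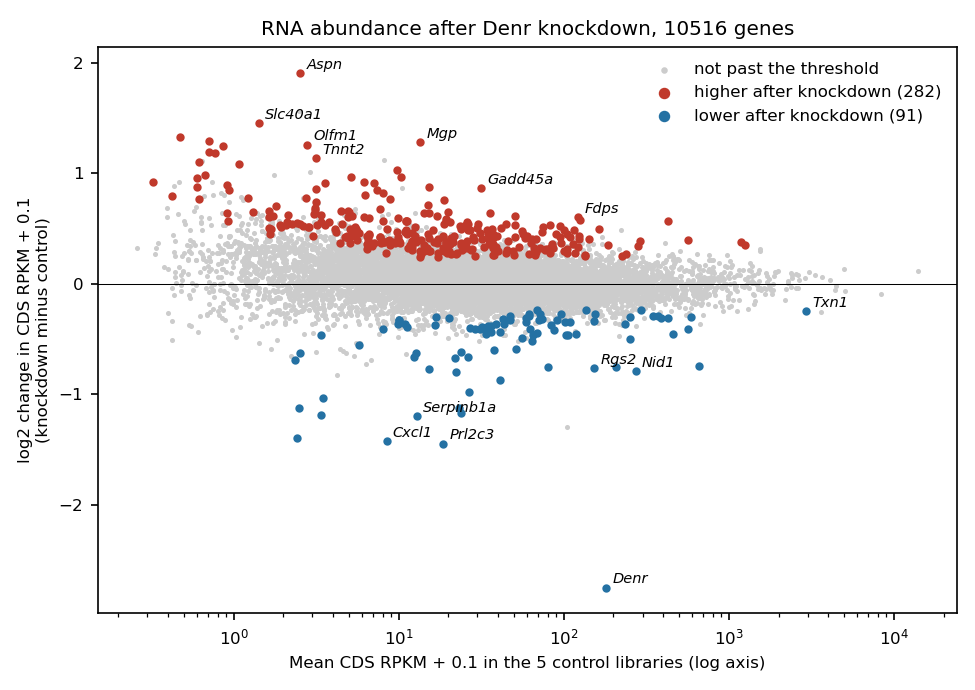
Change in RNA of each of the 10516 genes (log2, vertical axis) against its mean level in the 5 control libraries (RPKM + 0.1, log axis); red, higher after knockdown, blue, lower, grey, not past the threshold. Denr lies far below all other genes at −2.75, and Aspn (1.91) and Slc40a1 (1.46) lie highest among those labelled.

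The targeted gene checked the labels. Denr (ENSMUSG00000023106, chr5:123907175-123928835 of GRCm38, plus strand) had 44, 43.2 and 34.4 RPKM in the libraries with shRNA1 and 15.5, 20.8 and 17.4 RPKM in those with shRNA2. The controls held 190.1, 185 and 189 RPKM with scramble shRNA and 165 and 174 RPKM with Gfp shRNA. No knockdown library came near a control, and the reduction was deeper with shRNA2 than with shRNA1 (log2 change −2.75, standard error 0.25, adjusted p = 0.00035; exact two-sided permutation test over the 462 arrangements of the libraries, p = 0.002165, the smallest that they can give; difference between the shRNAs −1.18, adjusted p = 0.00197). The RNA of its partners did not pass the test. Mcts1 changed by −0.23 (adjusted p = 0.583) and Eif2d by −0.0036 (adjusted p = 0.991).

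Among the 15 largest rises of genes whose libraries separated, there were an iron exporter, matrix proteins and proteins of the contractile apparatus. Slc40a1 (chr1:45908068-45926523), ferroportin, which exports iron from cells, had 2.65, 3.67 and 5.28 RPKM as the lowest, median and highest of the 6 knockdown libraries. Its controls held 0.875, 1.19 and 1.3 RPKM with scramble shRNA and 1.43 and 1.8 RPKM with Gfp shRNA, so that all of them lay below the lowest knockdown library (log2 change 1.46, standard error 0.19, adjusted p = 0.00327). Mgp (chr6:136872435-136875823), matrix Gla protein, an inhibitor of calcification, had 28.2, 32.2 and 37.9 RPKM after knockdown, by the same order. In controls it had 11.8, 9.15 and 17.1 RPKM with scramble shRNA and 12.9 and 15.9 RPKM with Gfp shRNA, and the highest control remained well under the lowest knockdown library (log2 change 1.28, standard error 0.14, adjusted p = 0.000549). Olfm1, a secreted glycoprotein of the olfactomedin family, had 5.46, 6.18 and 6.84 RPKM after knockdown. With scramble shRNA it had 1.78, 1.54 and 2.63 RPKM and with Gfp shRNA 3.55 and 4.03 RPKM, so that the Gfp controls lay above the scramble controls while both lay below the knockdown (log2 change 1.26, standard error 0.21, adjusted p = 0.00791).

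Tnnt2, cardiac troponin T, a regulator of the thin filament of muscle, had 5.31, 6.76 and 8.0 RPKM after knockdown, against 3.37, 3.75 and 3.96 RPKM with scramble shRNA and 2.42 and 1.77 RPKM with Gfp shRNA (log2 change 1.14, standard error 0.19, adjusted p = 0.00787). Actg2, the gamma actin of smooth muscle, changed by 0.92 (adjusted p = 0.0208). Gadd45a, a stress-induced protein of growth arrest, had 45.6, 58.9 and 67 RPKM after knockdown. Its controls held 26.9, 27.5 and 24 RPKM with scramble shRNA and 38.3 and 40.8 RPKM with Gfp shRNA, and here too Gfp shRNA lay between scramble shRNA and the knockdown (log2 change 0.86, standard error 0.14, adjusted p = 0.00791). Map2k6, the kinase upstream of p38, changed by 0.88 (adjusted p = 0.0132), Col11a1, a fibrillar collagen of cartilage, by 0.86 (adjusted p = 0.00429), and Bmf, a pro-apoptotic member of the BCL2 family, by 0.91 (adjusted p = 0.0639). The groups lay close together for Actg2, with 9.92 RPKM in the highest control and 10.5 RPKM in the lowest knockdown library, and for Bmf, with 5.33 and 5.39 RPKM. The rest were Pla2g2e, a secreted phospholipase (1.25), Galnt15, which starts O-linked glycans (1.19), Phyhd1 (1.18), Pilra (1.08) and Cd300lb (0.96), both receptors of the immunoglobulin superfamily known from myeloid cells, and Tmem119, known from osteoblasts and microglia (0.92). Their adjusted p-values lay between 0.00454 and 0.0721. Pla2g2e, Galnt15, Phyhd1 and Pilra had control means below 1 RPKM, and Pla2g2e rested on 1 to 19 reads per library.

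Of these 15 rises, 12 passed the test whichever library was left out. Pla2g2e and Galnt15 passed in 4 of the 11 and Bmf in 6. All 15 passed with the trend in CDS length and GC content removed, and 13 passed without both libraries that stood apart, the exceptions being Pla2g2e (adjusted p = 0.13) and Bmf (adjusted p = 0.117).

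After Denr, proliferins and Serpinb1a were among the largest falls of genes whose libraries separated. Proliferins, hormones of the prolactin family that growing fibroblasts secrete, fell in all 3 members listed (0 and 3 with the trend removed, 0 and 3 without both libraries). Prl2c3 had 4.8, 6.63 and 8.53 RPKM after knockdown, against 20.6, 22.9 and 24.3 RPKM with scramble shRNA and 11.8 and 13.3 RPKM with Gfp shRNA (log2 change −1.45, standard error 0.21, adjusted p = 0.00454). Prl2c5 changed by −1.39 (adjusted p = 0.0628) and Prl2c2 by −0.98 (adjusted p = 0.00775). These genes are near-identical copies among which reads may have been split, so that the single values are uncertain. Serpinb1a (chr13:32842092-32851185), an inhibitor of neutrophil proteases, had 4.67, 5.34 and 6.75 RPKM after knockdown. Each control lay above all of these, with 12.5, 10.5 and 13.7 RPKM with scramble shRNA and 15.5 and 11.7 RPKM with Gfp shRNA (log2 change −1.20, standard error 0.12, adjusted p = 0.00035). Nppb, the precursor of B-type natriuretic peptide, fell from 23.2 ± 3.82 RPKM (SD, n = 5) to 10.6 ± 1.85 RPKM (SD, n = 6), again without overlap (log2 change −1.12, standard error 0.14, adjusted p = 0.00153).

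Both neutrophil-attracting chemokines of the CXC family that passed the test fell. Cxcl5 (chr5:90759360-90761624) had 8.21, 10.2 and 12.5 RPKM after knockdown, against 23.8, 26.4 and 34.7 RPKM with scramble shRNA and 18.2 and 15.5 RPKM with Gfp shRNA (log2 change −1.17, standard error 0.18, adjusted p = 0.00727). Cxcl1 had 1.79, 2.8 and 5.53 RPKM after knockdown, against 12.2, 8.02 and 8.59 RPKM with scramble shRNA and 7.83 and 5.1 RPKM with Gfp shRNA, and here Gfp shRNA replicate 2 lay within the range of the knockdown (log2 change −1.42, standard error 0.26, adjusted p = 0.0149). Ptx3, a pattern recognition protein of innate immunity, changed by −1.03 (adjusted p = 0.0163). Rgs2, which switches off signalling by G proteins, had 76.7, 91.8 and 97.9 RPKM after knockdown, against 140.2, 146 and 179.9 RPKM with scramble shRNA and 156 and 140.2 RPKM with Gfp shRNA (log2 change −0.76, standard error 0.084, adjusted p = 0.000549). Its knockdown values lay close together and well below each control. Nid1, nidogen, which links laminin to collagen IV in basement membranes, fell from 273 ± 18.9 RPKM (SD, n = 5) to 161 ± 34.3 RPKM (SD, n = 6), and Ecm1, another matrix protein, from 41 ± 4.26 RPKM (SD, n = 5) to 23.1 ± 7.07 RPKM (SD, n = 6) (adjusted p = 0.00775 and 0.0217). Glyat, a glycine acyltransferase, changed by −1.18 (adjusted p = 0.00692), Cyp3a13, a cytochrome P450, by −1.12 (adjusted p = 0.0486), and Aldh3a1, an aldehyde dehydrogenase, by −0.77 (adjusted p = 0.00838). Ly6c1, a surface protein with a closely similar neighbour in its family, changed by −0.76 (adjusted p = 0.0158).

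Of the 15 falls, Denr included, 13 passed whichever library was left out. Prl2c5 passed in 8 of the 11 and Cyp3a13 in 9. All 15 passed with the trend in CDS length and GC content removed and without both libraries that stood apart.

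**Figure D3:**
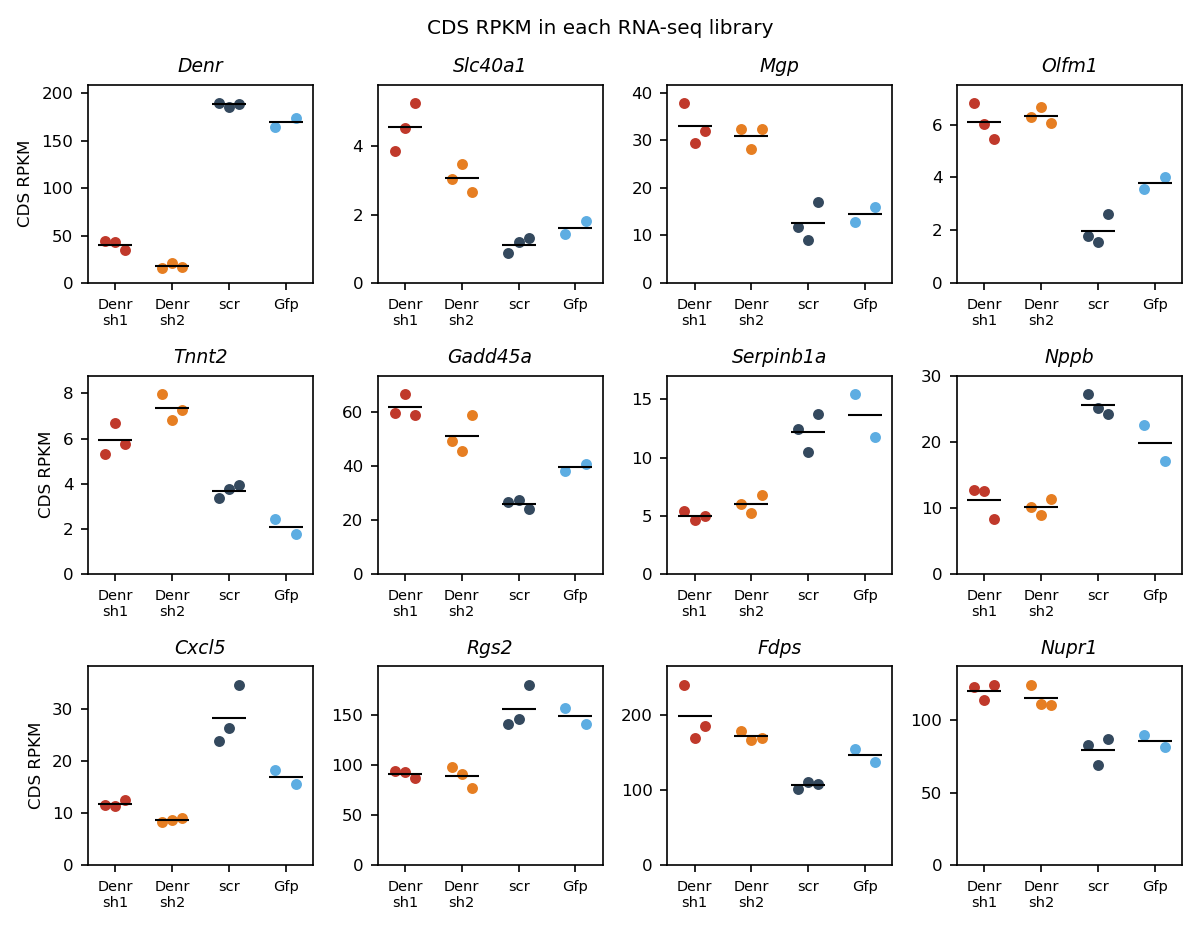
CDS RPKM of 12 genes in each of the 11 RNA-seq libraries (points, by shRNA; horizontal lines are means of each shRNA; scr, scramble shRNA). All knockdown points of Slc40a1, Mgp, Olfm1, Tnnt2, Gadd45a, Fdps and Nupr1 lie above the controls, and all those of Denr, Serpinb1a, Nppb, Cxcl5 and Rgs2 lie below.

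The effects of both Denr shRNAs were compared directly, by the difference between their means in a fit with a mean for each of the 4 shRNAs. Of 10516 genes, 217 differed between them (2.06%), 119 higher and 98 lower with shRNA2, and 11 of these were among the 373 genes changed by knockdown. Of the 30 largest changes, 6 differed. Besides Denr these were Galnt15, Map2k6, Nid1, Cyp3a13 and Prl2c3. Galnt15 had 0.90, 0.849 and 1.16 RPKM with shRNA1 and 1.49, 2.76 and 3.02 RPKM with shRNA2, so that its rise was seen mainly with the latter (difference 1.19, adjusted p = 0.055). Map2k6 likewise rose further with shRNA2 (difference 0.52, adjusted p = 0.0787). Nid1, Cyp3a13 and Prl2c3 fell further with shRNA1, although that shRNA left more Denr RNA, with differences of 0.54, 1.00 and 0.60 (adjusted p = 0.012, 0.0954 and 0.0248). For the other 24 the difference did not pass the test, which does not show that the shRNAs acted alike.

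**Figure D4:**
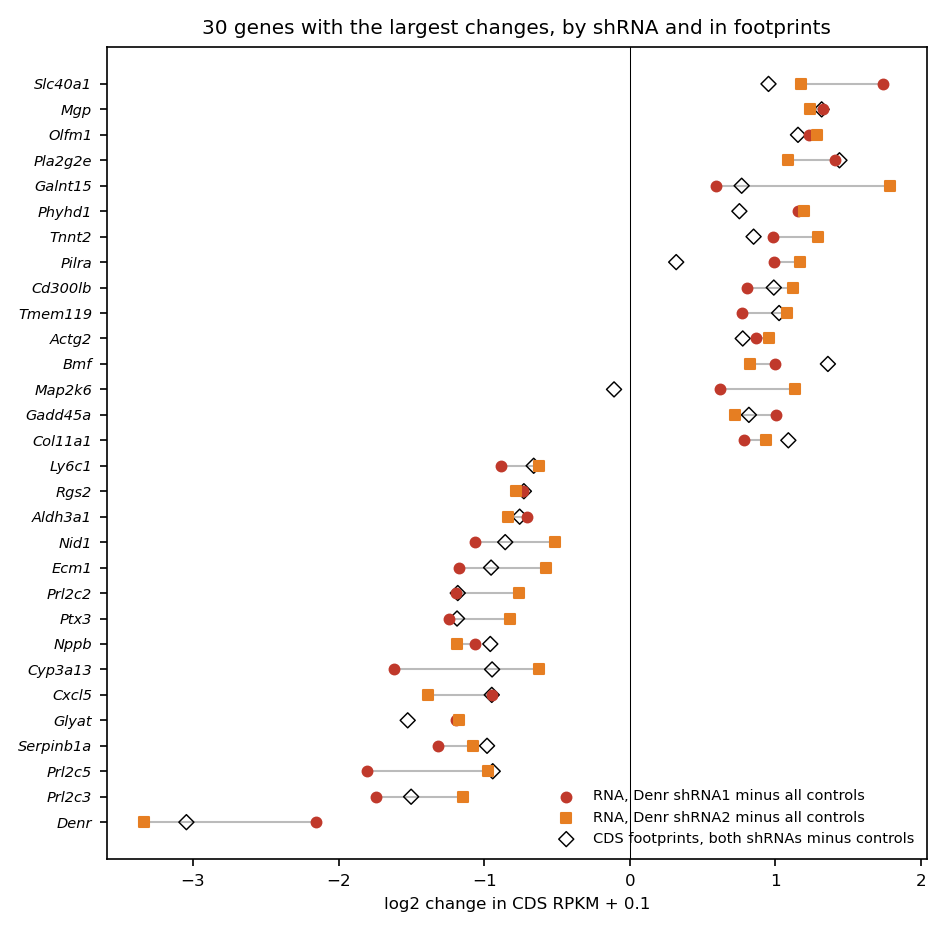
Log2 change (horizontal axis) of the 30 genes with the largest rises and falls among those whose libraries separated, for RNA with Denr shRNA1 (circles) and shRNA2 (squares), each against all 5 controls, and for CDS footprints with both shRNAs against all controls (diamonds). Points of both shRNAs lie on the same side of 0 for each gene, which follows from the choice of genes without overlap, and the footprints of Map2k6 lie at −0.11.

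Footprints on the CDS, from separate libraries of the same lysates, gave a second readout for these genes; over all genes, 10.0% passed the same test in RPF-seq. Of the 15 rises, 13 also passed the test in footprints, all higher, for example Mgp by 1.32 (adjusted p = 3.70e-05) and Tmem119 by 1.03 (adjusted p = 0.00176). The exceptions were Pilra, at 0.32 (adjusted p = 0.576), and Map2k6, at −0.11 (adjusted p = 0.531). Of the 15 falls, 14 also passed the test in footprints, all lower, for example Serpinb1a at −0.98 (adjusted p = 0.00404) and Rgs2 at −0.73 (adjusted p = 0.000671), and Prl2c5 at −0.94 (adjusted p = 0.233) was the exception.

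Genes of cholesterol and fatty acid synthesis, which sterol regulatory element binding proteins switch on when sterols run low, lay mostly on the high side after knockdown. Of 41 genes measured, 10 rose and none fell (background 2.68% higher and 0.865% lower). A positive change was seen in 38 of the 41, against 6000 of all 10516 genes. The median was 0.28, against 0.027 for all genes. The genes that rose came from several steps of the pathway. Fdps, which makes farnesyl diphosphate, changed by 0.60 (adjusted p = 0.0274), Fdft1, which makes squalene, by 0.47 (adjusted p = 0.0447), Lss, which closes the sterol ring, by 0.45 (adjusted p = 0.0245), and Tm7sf2, a sterol reductase of later steps, by 0.66 (adjusted p = 0.0246). Nsdhl, another enzyme of the sterol branch, changed by 0.41 (adjusted p = 0.0821). Fdps had 167, 174 and 240.4 RPKM after knockdown, against 101, 110.2 and 108 RPKM with scramble shRNA and 155 and 138 RPKM with Gfp shRNA. Its highest value was that of Denr shRNA1 replicate 1, and the Gfp controls lay between scramble shRNA and the knockdown. Srebf2, the transcription factor that drives this pathway when sterols are low, changed by 0.42 (adjusted p = 0.0163), and the desaturases Fads2, Fads1 and Scd1 by 0.43 (adjusted p = 0.0322), 0.36 (adjusted p = 0.0824) and 0.32 (adjusted p = 0.0205), with the call of Fads1 lost when the trend was removed (adjusted p = 0.113). Other sterol-regulated genes had positive values short of the threshold, such as Hmgcs1 at 0.36 (adjusted p = 0.172), Insig1 at 0.32 (adjusted p = 0.175) and Cyp51 at 0.37 (adjusted p = 0.109). Fasn, fatty acid synthase, stood at 0.016 (adjusted p = 0.954) and Acaca, which makes malonyl-CoA, at 0.11 (adjusted p = 0.445). The 3 negative values were those of Elovl5 at −0.18 (adjusted p = 0.429), Scd2 at −0.12 (adjusted p = 0.704) and Idi1 at −0.11 (adjusted p = 0.807). Scd2, a further desaturase, had a higher control level than Scd1 (330 against 77.7 RPKM) and differed between the Denr shRNAs (adjusted p = 0.00785). With the trend in CDS length and GC content removed, 17 rose and none fell; after centring 8 rose, and without both libraries that stood apart 10. Slc25a1, the mitochondrial citrate carrier that supplies carbon for lipid synthesis, belonged to the solute carriers and changed by 0.58 (adjusted p = 0.0274).

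Promoters of these genes were searched for short motifs of factors known to control them, in the RefSeq windows of 250 bases before to 50 bases after the gene start (GRCm38.p6; the window listed first for a gene, both strands), which were at hand for 31 of the 41 genes and for 8357 of all. The core of the sterol regulatory element, TCACNCCAC, was in 1 of 31 and in 0.981% of all promoters. That promoter was the one of Hmgcs1, whose RNA did not pass the test, and its window is shown as the textbook element of the pathway (chr13:119690204-119690233, plus strand, motif in capitals).
Hmgcs1: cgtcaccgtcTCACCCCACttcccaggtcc
The CCAAT box (CCAAT), bound by NF-Y, stood in 22 of the 31 promoters (71.0%), against 40.0% of all, and in 4 of the 5 genes that rose and had a window. Promoters differ in many other respects, and no match says only that these letters are not in the window.

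Targets of ATF4, the factor that translation of upstream reading frames controls in the integrated stress response, split into a few that rose and many near 0. Of 46 measured, 6 rose and none fell, while the median of the list was −0.043, below that of all genes. Positive changes made up 17 of the 46, against 6000 of all 10516 genes. Trib3, a pseudokinase that feeds back on ATF4, changed by 0.61 (adjusted p = 0.0279), Nupr1, a stress-induced chromatin protein, by 0.53 (adjusted p = 0.00454), and Ddit3, the factor CHOP, by 0.52 (adjusted p = 0.0854). Atf4 itself changed by 0.38 (adjusted p = 0.0266) and its relative Atf5 by 0.35 (adjusted p = 0.0322). Slc6a9, a glycine transporter, changed by 0.43 (adjusted p = 0.0589). Nupr1 had 110.5, 119 and 125 RPKM after knockdown, against 83.1, 68.8 and 86.8 RPKM with scramble shRNA and 89.6 and 81.8 RPKM with Gfp shRNA, a small but clean separation. Ddit3 was higher with shRNA1 (183, 144 and 152 RPKM) than with shRNA2 (124, 113 and 108 RPKM), and its controls held 76.3, 81.6 and 97 RPKM with scramble shRNA and 112 and 108 RPKM with Gfp shRNA. The shRNA2 libraries thus overlapped with those of Gfp shRNA, and the shRNAs differed (difference −0.47, adjusted p = 0.0954). Enzymes of amino acid synthesis and tRNA charging stayed short of the threshold, with values of −0.079 (adjusted p = 0.735) for Asns, −0.12 (adjusted p = 0.579) for Psat1, −0.27 (adjusted p = 0.19) for Psph and −0.17 (adjusted p = 0.416) for Aars, and so did Chac1 at 0.038 (adjusted p = 0.931). With the trend removed, 6 rose and 3 fell, and without both libraries that stood apart 4 rose and 3 fell.

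The amino acid response element to which ATF4 binds with a C/EBP partner, TGATGNAAT, was in 4 of the 38 promoters at hand for this list (10.5%) and in 0.347% of all. Among these 4 were Nupr1, which rose, and Pycr1 and Gars, which did not pass the test. Of the 6 genes that rose, all with a window, 1 had the element. The list was made of known targets of ATF4, so that its share of the element does not bear on the knockdown. The windows of Nupr1 and Pycr1 are shown to compare the motif, in capitals as it reads on the strand of the gene.
Nupr1: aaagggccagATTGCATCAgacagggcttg
Pycr1: gccctgtgtaTGATGCAATgcacaaggctc
They lie at chr7:126625562-126625591 (minus strand) and chr11:120643832-120643861 (minus strand) of GRCm38.p6, with the motif in the opposite orientation in Nupr1. Their RNA changes were 0.53 (adjusted p = 0.00454) for Nupr1 and 0.17 (adjusted p = 0.637) for Pycr1.

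Targets of NRF2, the factor of the antioxidant response, lay on the low side. Of 34 measured, 4 fell and none rose, with a median of −0.10 and 10 positive values, against 6000 positive values among all 10516 genes. Both subunits of the enzyme that limits glutathione synthesis fell, with changes of −0.29 (adjusted p = 0.0205) for Gclc and −0.32 (adjusted p = 0.0859) for Gclm. The other 2 were Gsta4, a glutathione transferase, at −0.41 (adjusted p = 0.0721), and thioredoxin, Txn1, at −0.25 (adjusted p = 0.0767). Gclc had 47.7, 50.4 and 52.4 RPKM after knockdown, against 60.5, 61.5 and 58.7 RPKM with scramble shRNA and 64 and 62.2 RPKM with Gfp shRNA. Although the change was small, no library of 1 group reached the other. Txn1, an abundant mRNA, fell from 2922 ± 98.9 RPKM (SD, n = 5) to 2464 ± 59.4 RPKM (SD, n = 6), without overlap. After removal of the trend 10 of the 34 fell and none rose, and without both libraries that stood apart 7 fell; after centring 5 fell. The antioxidant response element core, TGACNNNGC, was in 7 of the 28 promoters at hand (25%) and in 15.0% of all. Of the 4 genes that fell, 2 had a window, and the element was found in that of Gclm. The other promoters with it belonged to genes that did not pass the test. This list too was made of known targets, so that its share of the element does not bear on the knockdown.

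**Figure D5:**
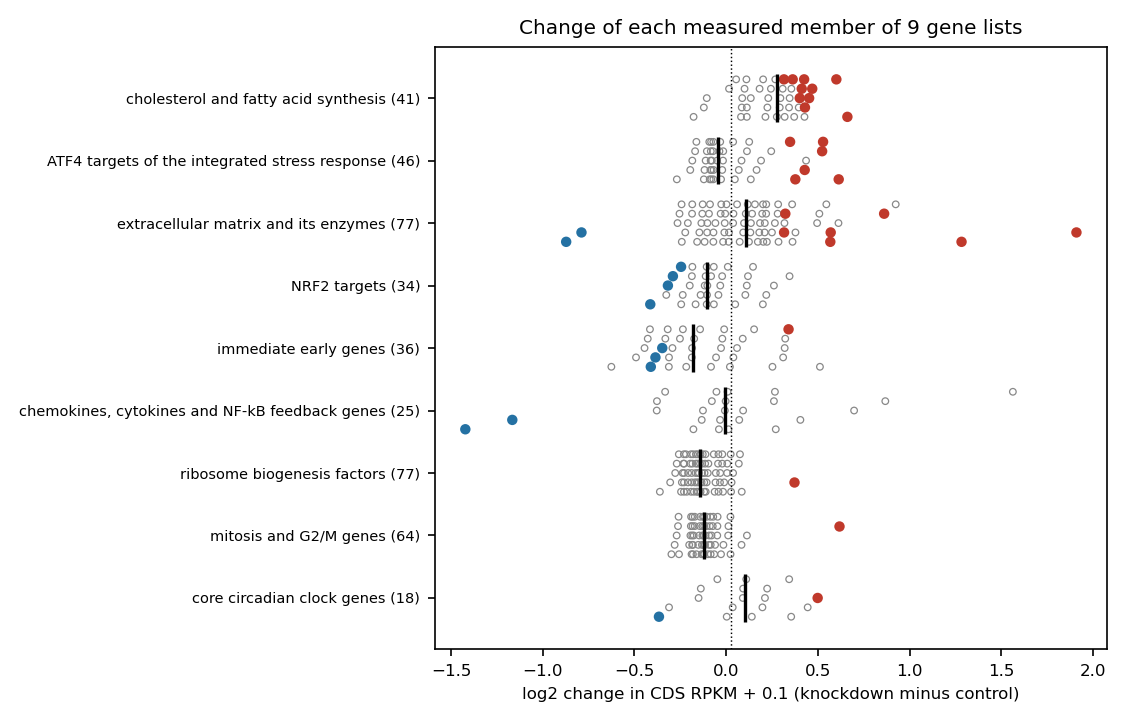
Log2 change (horizontal axis) of each measured member of 9 gene lists (rows, number measured in parentheses; points are spread vertically for legibility). Filled points passed the test (red higher, blue lower), open points did not, thick lines are medians of a list and the dotted line is the median of all genes (0.027); 38 of the 41 points of cholesterol and fatty acid synthesis lie above 0.

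The extracellular matrix changed in both directions. Of 77 matrix genes measured, 7 rose and 2 fell, with a median of 0.11. The rises were Aspn, Mgp, Col11a1, Bgn, Mmp11, Col4a1 and Col4a5, and the falls Ecm1 and Nid1. Aspn, asporin, a small leucine-rich proteoglycan that binds collagen, changed most (log2 change 1.91, standard error 0.41, adjusted p = 0.0322). It had 4.17, 7.85 and 10.4 RPKM after knockdown, against 0.823, 0.972 and 1.99 RPKM with scramble shRNA and 2.07 and 6.31 RPKM with Gfp shRNA. Gfp shRNA replicate 2 stood well above the remaining controls and within the knockdown range, and the call was lost without scramble shRNA replicate 2. Bgn, biglycan, a proteoglycan of the same family, changed by 0.57 (adjusted p = 0.0389), and the basement membrane collagens Col4a1 and Col4a5 by 0.32 (adjusted p = 0.0543) and 0.32 (adjusted p = 0.0699), opposite in direction to their linker Nid1. The major fibrillar collagens did not pass the test: Col1a1 stood at 0.36 (adjusted p = 0.182) and Col3a1 at 0.25 (adjusted p = 0.579). With the trend removed, 7 matrix genes rose and 6 fell, and Col4a1 was no longer among the rises, at 0.19 (adjusted p = 0.222); without both libraries that stood apart, 8 rose and 4 fell. Among 58 integrins and adhesion receptors, 2 rose and 1 fell (3 and 5 with the trend removed, 2 and 2 without both libraries). These were 3.45% and 1.72% of the list, near the 2.68% and 0.865% of all genes. Itgb3, integrin beta 3, rose by 0.57 (adjusted p = 0.0217) and Pcdhb9, from a cluster of similar protocadherins, by 0.63 (adjusted p = 0.0721); Itgb1bp1, a protein that binds integrin beta 1 rather than a receptor, fell by 0.34 (adjusted p = 0.049). Of 42 genes of the contractile cytoskeleton under serum response factor, 1 rose, Actg2, and 1 fell, while 8 fell and 2 rose with the trend removed, and 5 fell and 2 rose without both libraries that stood apart. Of 27 response genes of the TGF-beta, BMP, Wnt, Notch and Hedgehog pathways, 2 rose and none fell (2 and 1 with the trend removed, 4 and 0 without both libraries), namely Pmepa1, a TGF-beta target that dampens that pathway, with 0.64 (adjusted p = 0.0462), and the ligand Tgfb1, with 0.60 (adjusted p = 0.0416). The call of Pmepa1 was lost with the trend removed (adjusted p = 0.11).

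Immediate early genes, the first to respond to serum and growth factors, had a median of −0.18 over 36 measured, with 1 rise and 3 falls. Trib1, a pseudokinase, changed by −0.41 (adjusted p = 0.0654), Klf2, a Krüppel-like factor, by −0.39 (adjusted p = 0.049), and Fosl1, the AP-1 subunit FRA-1, by −0.35 (adjusted p = 0.0975), while Btg1, an inhibitor of proliferation, rose by 0.34 (adjusted p = 0.0322). Their median CDS GC content was 61%, against 52.5% for all genes. With the trend removed, 16 of the 36 fell and 1 rose, and without both libraries that stood apart 7 fell and 2 rose. Beside Cxcl1 and Cxcl5, none of the 25 chemokines, cytokines and NF-kB feedback genes passed the test, so that none rose and 2 fell (0 and 4 with the trend removed, 0 and 3 without both libraries). Il33, an alarmin, had the highest value of them at 1.56 (adjusted p = 0.171), with 0.433 to 5.61 RPKM over the controls and 2.94 to 9.91 RPKM over the knockdown libraries, which overlapped. Ccl8 stood at 0.87 (adjusted p = 0.37), Ccl9 at 0.27 (adjusted p = 0.717) and Csf1 at −0.18 (adjusted p = 0.525). Each of these differed between the Denr shRNAs (adjusted p = 0.00101, 0.012 and 0.0645), which the pooled test does not show. Of 42 interferon-stimulated genes, 2 rose and none fell (3 and 0 with the trend removed, 4 and 0 without both libraries), Trim30a by 0.37 (adjusted p = 0.0924) and Isg20 by 0.33 (adjusted p = 0.081), whose call was lost with the trend removed (adjusted p = 0.243). Of 46 receptor tyrosine kinases and their growth factors, 1 rose and 2 fell (2 and 3 with the trend removed, 2 and 2 without both libraries). The ephrin Efna4 rose by 0.39 (adjusted p = 0.0832), and the receptor Ror1 and the neurotrophic factor Gdnf fell, with changes of −0.41 (adjusted p = 0.0439) and −0.39 (adjusted p = 0.0492).

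Genes of growth and division moved little singly but lay together on the low side. Ribosome biogenesis factors had a median of −0.14 over 77 genes, 10 of them positive. Mitosis and G2/M genes had a median of −0.12 over 64, 7 of them positive. Over all genes the median was 0.027, and 6000 of 10516 were positive. Single changes passed the test in 1 ribosome biogenesis factor and 1 mitosis gene, and both of these were rises. Rrp9, a component of the U3 particle that processes ribosomal RNA, changed by 0.37 (adjusted p = 0.0881), and Sgo1, shugoshin, which protects cohesion at centromeres, by 0.62 (adjusted p = 0.0205). Sgo1 had 61.7, 79.4 and 89.4 RPKM after knockdown, against 51.9, 51.3 and 61.8 RPKM with scramble shRNA and 40.7 and 47 RPKM with Gfp shRNA, so that the lowest knockdown value and the highest control met. Its footprints did not follow, at −0.015 (adjusted p = 0.916). None of 51 genes of DNA replication, 55 of DNA repair and 44 proteasome subunits passed the test, with medians of −0.066, −0.021 and −0.039. With the trend removed, 4 ribosome biogenesis factors and 4 mitosis genes fell, 1 of each still rose, and 2 genes fell in each of the lists of DNA replication, DNA repair and proteasome. Over all genes, 3.62% rose and 3.49% fell with the trend removed. Without both libraries that stood apart, no ribosome biogenesis factor passed, 1 mitosis gene rose and 1 fell, and 1 gene of DNA replication fell. Of 39 p53 targets, 1 rose and 1 fell (1 and 5 with the trend removed, 1 and 2 without both libraries). Gadd45a rose and Ei24 fell by 0.27 (adjusted p = 0.0674), while Cdkn1a, the inhibitor p21, stood at 0.10 (adjusted p = 0.797) and Mdm2 at −0.16 (adjusted p = 0.358).

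The lists of the translation machinery were read against the 3.55% called among all genes. Among 18 factors of reinitiation and ribosome recycling, 1 rose and 1 fell (1 and 3 with the trend removed, 1 and 1 without both libraries). Denr fell and Eif1, which selects the start codon, rose by 0.38 (adjusted p = 0.0462), from 288 ± 12.6 RPKM (SD, n = 5) to 378 ± 50.04 RPKM (SD, n = 6). Of 46 translation initiation factors, Eif1 and Eif3f, a subunit of eIF3, rose and none fell (1 and 1 with the trend removed, 1 and 2 without both libraries), the latter by 0.25 (adjusted p = 0.0784), a call lost with the trend removed (adjusted p = 0.108). Of 78 cytosolic ribosomal proteins, 1 rose and none fell (1 and 0 with the trend removed, 1 and 0 without both libraries). None of 74 mitochondrial ribosomal proteins passed the test (0 and 3 with the trend removed, 0 and 1 without both libraries). Of 75 genes listed by their symbols as subunits of oxidative phosphorylation, 1 rose and none fell (1 and 1 with the trend removed, 2 and 0 without both libraries). That gene was Atp5s, with 0.53 (adjusted p = 0.0547). The medians of these last 3 lists were 0.038, −0.0043 and 0.0031. Smg5 alone rose, by 0.26 (adjusted p = 0.097), among 23 factors of nonsense-mediated decay (0 and 0 with the trend removed, 0 and 0 without both libraries). None of 35 genes of the unfolded protein response passed (0 and 0 with the trend removed, 0 and 0 without both libraries), with a median of 0.042.

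Of 18 core clock genes measured, Bhlhe40 (DEC1), a repressor, rose and Nr1d1 (REV-ERB alpha), the repressor of Arntl, fell (1 and 1 with the trend removed, 1 and 1 without both libraries). Bhlhe40 had 30.8, 38.3 and 40.1 RPKM after knockdown, against 21.8, 23.9 and 23.5 RPKM with scramble shRNA and 30.9 and 31.4 RPKM with Gfp shRNA, with the lowest knockdown value just under both Gfp controls (log2 change 0.50, standard error 0.11, adjusted p = 0.037). Nr1d1 had 28.5, 33.5 and 39.2 RPKM after knockdown, against 46.7, 48.8 and 39.9 RPKM with scramble shRNA and 42.4 and 40.4 RPKM with Gfp shRNA, without overlap (log2 change −0.37, standard error 0.089, adjusted p = 0.0556). Both were called in 9 and 6 of the 11 fits that left out a library. The remaining 16 did not pass. The activators stood at −0.14 (adjusted p = 0.794) for Clock, −0.31 (adjusted p = 0.373) for Arntl and −0.15 (adjusted p = 0.754) for Arntl2. The repressors stood at 0.22 (adjusted p = 0.483) for Per1, 0.35 (adjusted p = 0.306) for Per2, 0.21 (adjusted p = 0.488) for Per3, 0.14 (adjusted p = 0.672) for Cry1, 0.20 (adjusted p = 0.366) for Cry2, 0.036 (adjusted p = 0.953) for Bhlhe41, 0.11 (adjusted p = 0.749) for Nr1d2 and 0.34 (adjusted p = 0.124) for Ciart. Rora, an activator of Arntl, stood at 0.44 (adjusted p = 0.301), the kinases Csnk1d and Csnk1e at 0.091 (adjusted p = 0.492) and −0.048 (adjusted p = 0.793), and Timeless at 0.092 (adjusted p = 0.599). For Clock, the libraries ranged from 15.7 to 32.2 RPKM after knockdown and from 18.1 to 40.9 RPKM in controls, with the lowest value in Denr shRNA1 replicate 1. Of 14 output factors, Dbp alone rose (0 and 0 with the trend removed, 0 and 0 without both libraries), by 0.36 (adjusted p = 0.0754); with the trend removed its adjusted p was 0.172.

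Of 170 solute carriers, 7 rose (4.12%, against 2.68% of all genes) and 2 fell (1.18%, against 0.865%) (8 and 5 with the trend removed, 7 and 3 without both libraries), with a median of 0.064. After Slc40a1 and Slc25a1, the largest were Slc41a1, a magnesium transporter, with 0.45 (adjusted p = 0.0149), and Slc6a9. Footprints on Slc41a1 went the other way, by −0.60 (adjusted p = 0.00743). Of 306 zinc-finger genes named Zfp, 5 rose (1.63%) and none fell (10 and 3 with the trend removed, 10 and 1 without both libraries), with a median of 0.020; the largest were Zfp30 with 0.70 (adjusted p = 0.00747), Zfp64 with 0.50 (adjusted p = 0.00621), Zfp827 with 0.46 (adjusted p = 0.0205) and Zfp82 with 0.42 (adjusted p = 0.0832). The footprints of Zfp30 and Zfp64 stood at 0.12 (adjusted p = 0.676) and −0.14 (adjusted p = 0.375). Of 48 genes of lysosome and autophagy, 2 rose and none fell (3 and 1 with the trend removed, 0 and 0 without both libraries), Cln3 by 0.53 (adjusted p = 0.0465) and Uvrag by 0.26 (adjusted p = 0.0988). Of 35 genes of hypoxia and glycolysis, none rose and 1 fell (0 and 6 with the trend removed, 0 and 3 without both libraries), Higd1a, by 0.29 (adjusted p = 0.0875). In all, 80 of the 373 genes belonged to a list described here, and 293 to none.

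The 5′ UTR of the same mRNAs, which the CDS test does not use, was tested in the same way. Of 10400 genes with a value, 10 passed the test (0.0962%), 5 higher and 5 lower. Of these, 7 had also passed on the CDS in the same direction, among them Denr (−2.76 on the 5′ UTR, adjusted p = 0.0144), Slc40a1 (1.43, adjusted p = 0.0887), Prl2c3 (−1.70, adjusted p = 0.0927) and Glyat (−1.49, adjusted p = 0.0887). Pcyt1b, an enzyme of phosphatidylcholine synthesis, had 1.56 on the 5′ UTR (adjusted p = 0.0927) and 0.11 on the CDS (adjusted p = 0.674).

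Some genes with large mean differences did not pass, and their replicates spread widely. The lowest among them was Slurp1, a secreted modulator of acetylcholine receptors, at −1.30 (adjusted p = 0.152), with 55.7 to 154 RPKM over the controls and 16.9 to 87.0 RPKM over the knockdown libraries. The highest besides Il33 was Capn6, a calpain without protease activity, at 1.12 (adjusted p = 0.144), with 3.11 to 15.1 RPKM in controls and 11.1 to 20.6 RPKM after knockdown.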

How the data were processed

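RNA-seq and RPF-seq libraries were made from 11 lysates of NIH3T3 cells, and the values of 11 RNA-seq libraries were used, with the RPF-seq values fitted in the same way and given for named genes only. According to the methods, the authors trimmed reads, filtered them by size and aligned them step by step, first against rRNA and tRNA and then against cDNA and the GRCm38 genome (Bowtie2 2.2.1 and TopHat2 2.0.11 per the labels), counted the 5′ end of RNA-seq reads on expressed isoforms (Cufflinks 2.2.1), dropped mitochondrial genes and those with few reads, and normalised by the upper quartile with edgeR. The deposited values are RPKM of CDS and 5′ UTR per gene and library, without pooling. Isoform choice, the preference for CDS where a read fits several regions, and the handling of copies can move single genes.

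Whole reads were recovered from the RPKM. The CDS length was taken from GENCODE vM21, without the stop codon, for 7559 genes, and was the shortest length giving whole reads in all libraries for the other 2957. With these, all 115676 values came out whole (tolerance 0.001 reads), with 7730990 to 18212778 CDS reads per library, medians of 16819206 for knockdown and 14112861 for control. They served for depth and for limma's voom as an alternative. The test was limma (lmFit, eBayes with trend, two-sided) on log2(RPKM + 0.1) over 10516 genes, with Benjamini-Hochberg adjustment and a threshold of 0.1, and was checked on data drawn with known changes. Those data were drawn for each gene independently, without a GC trend or differences between the shRNAs of a group. The check therefore does not cover the effect of these on the calls. For Denr an exact permutation test was added. Symbols matched for 10505 genes and CDS GC content for 10474.

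Genes named were Denr, Mcts1 and Eif2d, the 15 largest rises and falls among called genes whose libraries did not overlap and whose mean RPKM was at least 1, the 4 largest called members of each of 37 gene lists, and the core clock genes; other genes were named after their values were seen. Some genes that the rule takes, and 1 promoter window, are not reported here, and counts over lists include them. Members and lists were chosen with earlier results of these data known. Older symbols in the lists were matched through RefSeq synonyms. GC and length trends were removed per library by polynomials of degree 3. Alternatives were pseudocounts of 0.01 and 1, a mean RPKM of at least 1, centring, eBayes without trend, voom, single shRNAs, the mean of 4 shRNAs, the replicate block, GC and length correction, and each library left out. Random draws used the seed 1. Promoter sequences are from RefSeq (GRCm38.p6). The fits were run in R 4.3.3 with limma 3.58.1. Tables, the permutation test and plots were made in Python 3.11.15 with pandas 2.3.3, scipy 1.17.1, matplotlib 3.10.9 and numpy 2.4.6.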

Additional observations from a re-analysis of the deposited data

Results flagged for a closer look

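Of the 94 genes named, the values of each were searched in both groups for a library whose gap to its nearest neighbour took more of the range of its group than Dixon's critical value at 95% allows. Such a library was found in 14 of 188 groups, and chance alone gives about 1 in 20 groups. Denr shRNA1 replicate 1, which stood apart by its GC trend, was the odd library for 4 genes, with Col11a1 at 4.16 RPKM against 5.71 to 6.27 RPKM in the other knockdown libraries, Fdps at 240 RPKM against 167 to 185, Nr1d2 at 44.6 RPKM against 61.7 to 70.2 and Clock at 15.7 RPKM against 26.9 to 32.2. Scramble shRNA replicate 3, the shallowest library, was odd for Mcts1 at 16.4 RPKM against 6.74 to 8.51 RPKM in the other controls and for Bhlhe41 at 2.81 RPKM against 1.85 to 2.1. Gfp shRNA replicate 2 was odd for Aspn at 6.31 RPKM against 0.823 to 2.07 and for Rora at 9.59 RPKM against 4.58 to 5.11, and Gfp shRNA replicate 1 for Eif3f at 252 RPKM against 214 to 224 and for Itgb1bp1 at 169 RPKM against 147 to 149.8. The others were Pilra in Denr shRNA1 replicate 2 at 1.55 RPKM against 2.15 to 2.39, Zfp30 in scramble shRNA replicate 2 at 1.9 RPKM against 1.59 to 1.68, Cln3 in Denr shRNA2 replicate 3 at 2.31 RPKM against 2.89 to 3.12 and Arntl in Denr shRNA2 replicate 1 at 11.9 RPKM against 6.92 to 8.51.

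The change differed between the Denr shRNAs, by limma's test of the difference of their means (shRNA2 minus shRNA1), in 7 of these 94 genes: Denr by −1.18 (adjusted p = 0.00197), Galnt15 by 1.19 (adjusted p = 0.055), Cyp3a13 by 1.00 (adjusted p = 0.0954), Prl2c3 by 0.60 (adjusted p = 0.0248), Nid1 by 0.54 (adjusted p = 0.012), Map2k6 by 0.52 (adjusted p = 0.0787) and Ddit3 by −0.47 (adjusted p = 0.0954). Ddit3 and Denr are the only ones of these that were lower with shRNA2.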

How the results depend on the processing

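Denr RNA was called in each alternative. The count of 373 genes (282 higher, 91 lower) moved with the design: to 622 (433, 189) as the mean of 4 shRNAs, 159 (70 higher) with shRNA1 alone, 168 lower with shRNA2 alone, 940 (708, 232) against scramble shRNA alone, 18 (13, 5) against Gfp shRNA alone, with 2 libraries, 745 (366 lower) with the GC and length trend removed, and 182 lower without both libraries that stood apart, an alternative chosen after seeing the data. Pseudocounts, the filter on low values, centring, eBayes without trend and voom on recovered reads kept it within 1.5 times. Without 1 library it ranged from 139 to 734 (100 to 586 higher, 35 to 167 lower): 245, 212 and 209 without shRNA2 replicate 1, 2 and 3, 146, 139 and 241 without scramble shRNA replicate 1, 2 and 3, and 734 without Gfp shRNA replicate 1. The 217 genes that differed between the Denr shRNAs ranged from 61 to 245 (88 without shRNA1 replicate 2, 68 and 61 without shRNA2 replicate 2 and 3), and the 10 genes changed on the 5′ UTR from 3 (without shRNA2 replicate 1 or scramble shRNA replicate 2) to 21 (without shRNA1 replicate 1). The causes were not tested.

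With the replicate number as a block, 1003 genes were called (750, 253), among them all 373, and 965 genes differed between the Denr shRNAs. Libraries with the same number had a mean correlation of deviations across genes of 0.326 over 15 pairs, but −0.082 in the lowest and 0.1 or less in 5 pairs, and 7 of 11 libraries correlated best with their own number, so that the numbers were not taken to pair the samples.

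Of 76 called named genes other than Denr, none changed direction under an alternative, 71 were called with the GC trend removed, 73 with voom, 66 after centring, 30 with shRNA1 alone, 51 with shRNA2 alone, 8 against Gfp shRNA alone and 42 to 75 without 1 library. Some genes short of the threshold changed sign, none past the threshold: Cry1 (−0.014 with shRNA2 alone), Bhlhe41 (−0.0081 against scramble shRNA alone, −0.019 with the replicate block, −0.092 with the GC trend removed, −0.088 to 0.16 without 1 library), Eif2d (0.064 with shRNA2 alone, 0.00049 against scramble shRNA alone, 0.0069 with the replicate block, −0.035 to 0.035 without 1 library), Csnk1e (0.033 with shRNA2 alone, 0.041 against Gfp shRNA alone), Clock (0.17 against Gfp shRNA alone, 0.13 without both libraries that stood apart, −0.31 to 0.014 without 1 library), Arntl2 (0.040 against Gfp shRNA alone), Mcts1 (0.088 against Gfp shRNA alone). Mcts1 moved from −0.23 to −0.015 without scramble shRNA replicate 3.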
